A study of Rattus norvegicus with 11 samples.

Results

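The 10 genes described here control or carry out the response of mTORC1, the nutrient-sensing protein kinase complex, in rat hippocampus: Wdr24, Sesn1, Akt1, Tsc1, Tsc2, Rheb, Mtor, Mlst8, Rps6kb1 and Eif4ebp1. They were taken by name as the probe sets whose single gene symbol is one of these, which gave 15 of the 15866 probe sets on the arrays and 10 of 10411 named genes. The genes were selected on their place in the pathway and with the measured diet differences of this same comparison in view, so those differences are given as a description. The study put total RNA of hippocampus on 11 arrays, 5 of rats fed a ketogenic diet and 6 of rats fed a control diet. A ketogenic diet is rich in fat and poor in carbohydrate, and the labels describe it as one that prevents seizures. The labels give no strain, sex, age, length of feeding or composition of either diet, and do not say whether each array is a separate animal, and p-values therefore reflect the variation among these arrays, which may be technical.

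mTORC1 sits on the lysosome and starts protein synthesis when amino acids, growth factors and energy are all in supply. Amino acids reach it through the GATOR complexes and the Rag GTPases, whereas growth factors act through Akt and the Tsc1 and Tsc2 proteins on the small GTPase Rheb, which switches the kinase on. Its best known substrates, S6 kinase and the eIF4E-binding proteins, set the rate of translation, in hippocampus including translation at synapses, and inherited loss of TSC1 or TSC2 in humans causes tuberous sclerosis, in which epilepsy is common. An array of this kind reads transcript levels only, and the activity of the kinase lies in phosphorylation, which was not measured.

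Values are log2 of the normalized signal, and each difference is ketogenic minus control. A probe set is described as called when its adjusted p was below 0.05 in limma over all 11899 tested probe sets. For the selected genes this is a label from the fit over all probe sets and no test of their selection, and its loss when an array is left out is likewise a description. Calls made up 16.5% of those, with 8.62% higher and 7.86% lower on the ketogenic diet; a called probe set is common in these data. The share of calls that were higher was 52.3% after quantile normalization and 38.3% in the values as deposited, where the array median was 6.39 ± 0.06 on the ketogenic diet and 6.53 ± 0.03 on the control diet (SD, n = 5 and 6), a shift of -0.14.

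Several array-wide measures moved with diet. The log2 ratio of the 3 prime to the 5 prime control probe sets was 0.25 ± 0.08 on the ketogenic diet and 0.04 ± 0.07 on the control diet for Gapdh (exact two-sided permutation test, adjusted p = 0.00649), and 0.86 ± 0.10 against 0.67 ± 0.10 for actin (adjusted p = 0.00325 over 3 measures, from the smallest p this design allows, 0.00216). Ketogenic replicate 3 stood apart: it scored -2.82 on the first principal component (34.5% of the variance), while the remaining ketogenic arrays scored 18.7 to 25.8 and the control arrays -17.3 to -10.6, and its mean correlation was 0.952 with ketogenic and 0.961 with control arrays. Its title also ends in a letter that the other titles lack. The mean log2 level of the hybridisation spike-ins (RNA added before hybridisation), in the values as deposited, ran higher on the ketogenic diet. It was 8.51 to 8.91 on the ketogenic arrays, highest in replicate 3, and 8.24 to 8.54 on the control arrays. Fits with this level as a covariate therefore cannot fully separate it from diet. Hippocampal neuron markers were present but not all steady. Slc17a7, the vesicular glutamate transporter of excitatory neurons, was at 10.82 ± 0.09 on the ketogenic and 10.83 ± 0.09 on the control diet. The synaptic kinase gene Camk2a was at 10.65 ± 0.20 and 9.31 ± 0.62, a rise of 1.34 (adjusted p = 0.00395, limma). Camk2a lies outside the naming rule written at the start, so that p is no independent test. Of 5 tested red blood cell markers 4 were called lower and 1 higher, and their mean score ran from -1.42 to -0.95 on the ketogenic and from -0.23 to 0.14 on the control diet. Hbb, a haemoglobin chain, fell by 3.16 (adjusted p = 9.63e-10, limma). It was named as the largest change known of the series, so that p is no independent test. Choroid plexus markers had 3 of 6 called lower (scores from -0.61 to -0.19 against -0.21 to 0.61), and meningeal and fibroblast markers 2 of 8 (-0.87 to -0.11 against -0.41 to 0.60). Of the remaining lists, 0 markers were called higher and 2 of 7 lower for astrocytes, 0 and 1 of 6 for oligodendrocytes, 0 and 2 of 5 for microglia, 0 and 1 of 4 for endothelium, and 1 higher (Camk2a) and 0 lower of 9 for neurons. In bulk tissue, fewer cells of a type and less RNA per cell cannot be told apart, and the part of these measures in the differences below was not tested.

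Wdr24 had the widest diet difference of the 10 genes. Its protein is a subunit of GATOR2, the complex that relieves the inhibition of the Rag GTPases when amino acids are present. The single Wdr24 probe set, 1373938_at, read 6.67, 7.48, 6.79, 7.53 and 7.28 on the 5 ketogenic arrays, against a lowest of 4.18, a median of 4.65 and a highest of 6.82 on the 6 control arrays. All 5 ketogenic values lay above 5 of the 6 control values, and only control replicate 6, at 6.82, reached into the ketogenic range, above ketogenic replicates 1 and 3. The means were 7.15 ± 0.40 on the ketogenic diet and 5.02 ± 0.97 on the control diet, a difference of 2.13 (SE 0.37), or 4.37-fold, which placed the probe set at the 99.9th percentile of absolute differences over all tested probe sets. The control mean lay under 5.16, the lowest overall mean at which a probe set was tested, so Wdr24 entered the test through its ketogenic values. Without control replicate 6 the difference was 2.49, without ketogenic replicate 3 it was 2.21, and with both left out, a setting chosen after seeing the data, 2.57. When the 3 prime to 5 prime ratios of both control genes entered as covariates it was 1.18 and no longer called. The lowest actin ratio on the ketogenic diet was 0.755 and the highest on the control diet was 0.750, with no overlap. Fits with the ratio covariates, here and below, therefore cannot tell the ratios from diet.

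**Figure D1:**
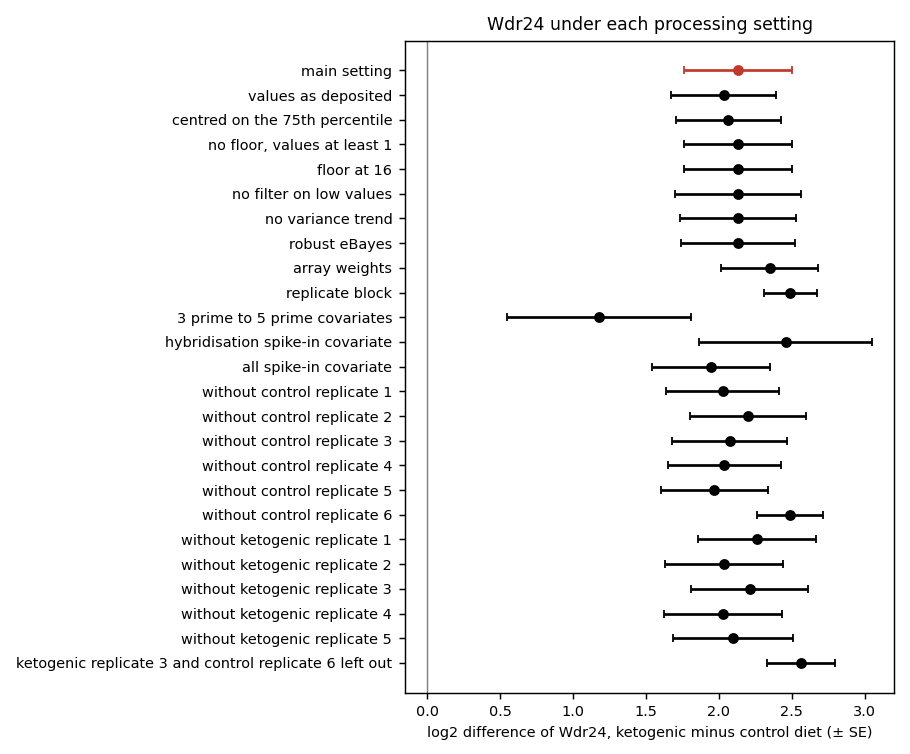
Log2 difference of Wdr24 (horizontal axis, ketogenic minus control, points with SE bars) under each processing setting (rows). All settings shown gave a positive difference, from 1.18 with the 3 prime to 5 prime ratios entered as covariates to 2.57 with ketogenic replicate 3 and control replicate 6 left out. Every row refits the same arrays or a part of them.

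Sesn1, a sestrin of the leucine-sensing family that binds GATOR2, had a smaller difference in the same direction. Its values were 7.38, 7.58, 6.87, 7.52 and 7.41 on the ketogenic diet, against 6.78, 6.95 and 7.38 as the lowest, median and highest control values. Ketogenic replicate 3 fell inside the control range while the other ketogenic values lay above its top, replicate 1 only narrowly. The difference was 0.36 (SE 0.13) and was not called with all arrays. It was 0.48, and called, without ketogenic replicate 3, and -0.07 with the ratio covariates. It was 0.75 with the level of the hybridisation spike-ins, which itself moved with diet, as a covariate, a setting chosen after seeing the data.

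Akt1, the kinase that carries the insulin signal to Tsc2, had 3 probe sets that did not move together. Probe set 1383126_at read 8.69, 8.64, 8.60, 8.60 and 8.62 on the ketogenic diet, against 8.23, 8.31 and 8.49 as the lowest, median and highest control values. The groups did not overlap, and the difference was 0.30 (SE 0.06), called higher; with the ratio covariates it was 0.14 and not called. Probe set 1375178_at ran the opposite way, with 6.43, 6.61, 6.95, 6.42 and 6.59 on the ketogenic diet, against a lowest of 6.85, a median of 6.99 and a highest of 7.55 on the control diet. Only ketogenic replicate 3 overlapped the control range there. That difference was -0.47 (SE 0.13), called lower, and the call was lost when control replicate 2 or ketogenic replicate 1, 2, 4 or 5 was left out. The remaining Akt1 probe set, 1368862_at, averaged 7.45 ± 0.12 on the ketogenic diet and 7.27 ± 0.17 on the control diet, with overlapping groups and a difference of 0.18 (SE 0.09), not called. Over the 11 arrays, 1375178_at and 1383126_at had a Pearson correlation of -0.69, a description of arrays that share diet groups.

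Tsc1 and Tsc2 form the brake that holds Rheb in its inactive state. Tsc2, the subunit with the GTPase-activating domain, read 8.20, 8.15, 8.20, 8.18 and 8.28 on the ketogenic diet, against 7.86, 8.02 and 8.31 as the lowest, median and highest control values (probe set 1368056_at). The ketogenic values lay inside the control range, and the difference of 0.13 (SE 0.08) was not called and turned to -0.04 with the ratio covariates. For Tsc1, the scaffold subunit, probe set 1389776_at read 7.20, 6.69, 6.84, 7.14 and 7.14 on the ketogenic diet, against a lowest of 6.56, a median of 6.72 and a highest of 6.84 on the control diet. Ketogenic replicates 1, 4 and 5 lay above all control values, and the difference of 0.28 (SE 0.10) was not called with all arrays but was without ketogenic replicate 2 (0.36) or 3 (0.33). The other Tsc1 probe set, 1369362_at, was dim and turned on 1 array: it read 5.62, 5.97, 3.24, 5.15 and 5.90 on the ketogenic diet, against 5.29, 5.44 and 5.92 as the lowest, median and highest control values. Its difference was -0.31 (SE 0.38), and 0.18 without ketogenic replicate 3. It was -1.52 with the ratio covariates and 1.09 with the level of the hybridisation spike-ins as a covariate, a setting chosen after seeing the data.

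Rheb, the GTPase that binds and activates mTORC1, had 1 bright probe set that was slightly lower on the ketogenic diet. Probe set 1398787_at read 10.03, 10.08, 10.08, 10.03 and 10.08 on the ketogenic diet, against 10.02, 10.26 and 10.43 as the lowest, median and highest control values. The ketogenic arrays lay within a narrow band below 5 of the 6 control arrays, with control replicate 1 under all of them. The difference of -0.19 (SE 0.06) was called lower, but was -0.07 in the values as deposited and -0.04 after centring on the 75th percentile, where it was not called, and -0.06 with the ratio covariates. The call was kept in only 3 of the 11 fits that left out 1 array, those that dropped control replicate 1 or 6 or ketogenic replicate 3. The other Rheb probe set, 1375360_at, averaged 6.22 ± 0.14 on the ketogenic and 6.14 ± 0.18 on the control diet; its difference of 0.08 (SE 0.11) turned to -0.10 in the values as deposited and -0.06 after centring on the 75th percentile.

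The transcripts of Mtor and Mlst8, which encode parts of the catalytic complex, differed little with all arrays. Mtor, the kinase, read 8.12, 7.93, 8.03, 7.96 and 7.92 on the ketogenic diet, against a lowest of 7.90, a median of 7.98 and a highest of 8.18 on the control diet (probe set 1368019_at). The ketogenic values lay inside the control range, and the difference of -0.02 (SE 0.07), which was 0.01 after centring on the 75th percentile, stood at the 6.06th percentile of absolute differences. Mlst8, a subunit that binds and stabilises the kinase domain, read 7.87, 7.66, 7.60, 7.14 and 7.67 on the ketogenic diet, against 7.66, 7.73 and 7.76 as the lowest, median and highest control values (probe set 1367963_at). The ketogenic arrays spread above and below the tight control values, with a difference of -0.13 (SE 0.10), or -0.01 without ketogenic replicate 4 and -0.36 with the ratio covariates. Neither was called.

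For each of the well known mTORC1 substrates, 1 probe set was lower on the ketogenic diet. For Rps6kb1, which encodes the S6 kinase that phosphorylates ribosomal protein S6, probe set 1398396_at read 6.45, 6.81, 6.87, 6.91 and 6.68 on the ketogenic diet, against 6.94, 7.13 and 7.34 as the lowest, median and highest control values. The groups did not overlap, and the difference of -0.38 (SE 0.10) was called lower, a call that was lost without ketogenic replicate 1 or 5. The other Rps6kb1 probe set, 1368116_a_at, had a mean too low to be tested and ran the opposite way. It read 6.03, 5.82, 4.25, 5.93 and 6.01 on the ketogenic diet, against a lowest of 3.73, a median of 4.02 and a highest of 4.33 on the control diet, with ketogenic replicate 3 inside the control range and the other ketogenic arrays above it. That untested difference was 1.56, and the 2 probe sets had a Pearson correlation of -0.71 over the 11 arrays. The direction for Rps6kb1 therefore depended on the probe set.

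Eif4ebp1, the repressor that holds the cap-binding protein eIF4E until mTORC1 phosphorylates it, read 6.90, 7.04, 7.55, 7.07 and 7.05 on the ketogenic diet, against 7.20, 7.56 and 7.73 as the lowest, median and highest control values (probe set 1386888_at). Ketogenic replicate 3 lay amid the control values, while the other ketogenic arrays lay below all of them. The difference was -0.43 (SE 0.12), called lower, and -0.54 without ketogenic replicate 3. It was -0.25 and not called with the ratio covariates, and -0.72 with the hybridisation spike-in covariate. The call was lost in 6 of the 11 fits that left out 1 array, those without control replicate 3 or 5 or ketogenic replicate 1, 2, 4 or 5.

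**Figure D2:**
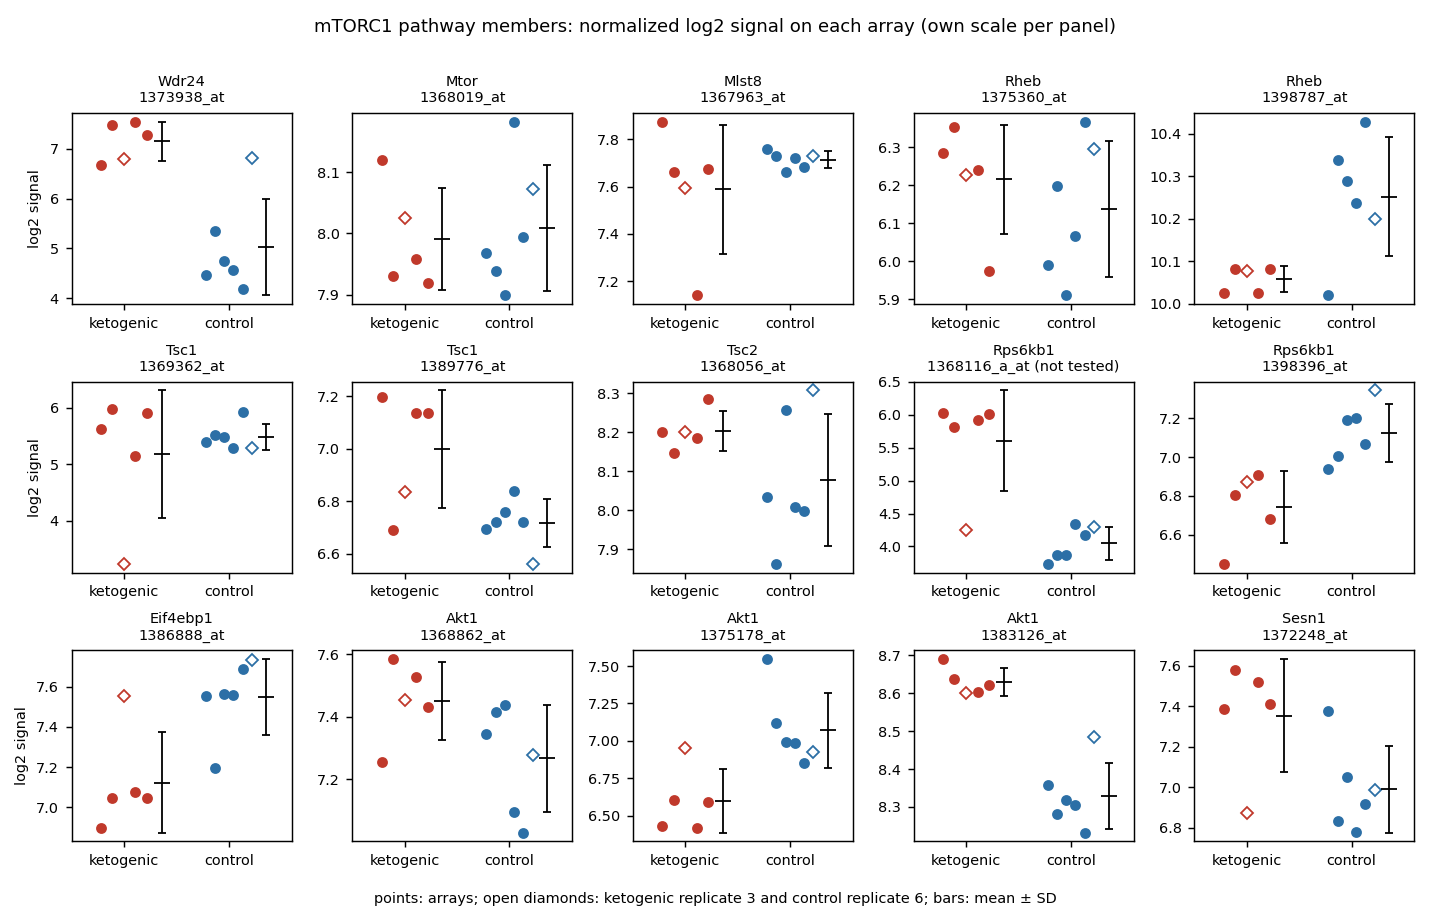
Normalized log2 signal (vertical axis, own scale in each panel) of the 15 member probe sets on each array, ketogenic on the left and control on the right of each panel; each point is 1 array, open diamonds are ketogenic replicate 3 and control replicate 6, and bars are means with SD. Wdr24 has the widest gap, Akt1 1383126_at and Rps6kb1 1398396_at are the tested probe sets whose groups do not overlap, and ketogenic replicate 3 lies near or inside the control values in several panels.

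Across the members, 14 of the 15 probe sets were tested. Wdr24 was called higher but is set aside here, since it passed the filter on low values through its ketogenic arrays alone. Of the other 13, 5 were called, 1 higher (Akt1 1383126_at) and 4 lower (Akt1 1375178_at, Rheb 1398787_at, Rps6kb1 1398396_at and Eif4ebp1), beside 16.5% of all tested probe sets. Since the same contrast informed the choice of genes, nothing is read from that count. With Wdr24 included the tested differences split evenly, 7 positive and 7 negative, with a median of 0.03 against -0.00 over all tested probe sets. Without Wdr24 the 13 lay between -0.47 and 0.36, and their median was the Mtor difference, -0.02. The even split and the sign of the median thus depended on Wdr24, and nothing is read from them. The groups did not overlap for 2 member probe sets, 1 in each direction, beside 6.99% of all tested probe sets. With the ratio covariates only 6 of all tested probe sets were called by limma, none of them a member. In that fit 767 had an unadjusted p under 0.05, which some probe sets reach by chance alone.

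**Figure D3:**
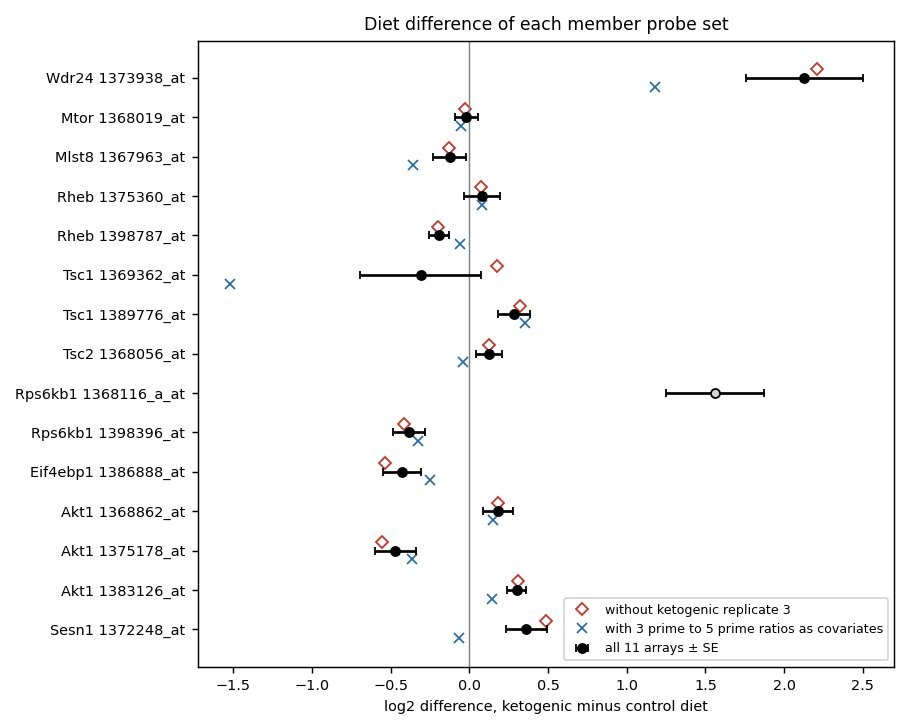
Log2 difference of each member probe set (horizontal axis, ketogenic minus control) with its SE, beside the values without ketogenic replicate 3 and with the 3 prime to 5 prime ratios entered as covariates. Wdr24 stands at 2.13 while the other 13 tested probe sets lie between -0.47 and 0.36, and the untested Rps6kb1 probe set (grey) lies at 1.56.

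Probe sets of the same member did not all move the same way. The 4 members with more than 1 probe set (Akt1, Rheb, Rps6kb1 and Tsc1) gave 6 pairs, of which 1, Akt1 1368862_at with 1383126_at, had differences of the same sign. Among the 1020 genes with exactly 2 tested probe sets, 573 (56.2%) had both differences of the same sign. The 6 pairs are not a like set, since those of Akt1 share probe sets and the Rps6kb1 pair holds an untested one. Among the members only Rheb and Tsc1 had exactly 2 tested probe sets, and in each of them 1 differed by less than its SE. Which transcript forms these probe sets read is not given in the sources used here.

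Promoter sequence was available from RefSeq (rat assembly GRCr8) for 8 of the 10 members; Wdr24 and Eif4ebp1 had no entry. The 250 bases before the start site were searched on both strands for 6 short motifs. Those of Rheb (chr4:11013133-11013382, plus strand) and Rps6kb1 (chr10:71865212-71865461, minus strand) are shown because they belong to called members and hold the 2 rarer motifs found among the members. Capitals mark the matches, and positions count back from -1 at the base before the start site.
Rheb: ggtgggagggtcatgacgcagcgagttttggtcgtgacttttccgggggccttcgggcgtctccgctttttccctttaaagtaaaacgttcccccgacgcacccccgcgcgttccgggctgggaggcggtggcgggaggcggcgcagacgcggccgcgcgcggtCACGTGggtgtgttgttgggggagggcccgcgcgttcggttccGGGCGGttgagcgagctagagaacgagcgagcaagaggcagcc
Rps6kb1: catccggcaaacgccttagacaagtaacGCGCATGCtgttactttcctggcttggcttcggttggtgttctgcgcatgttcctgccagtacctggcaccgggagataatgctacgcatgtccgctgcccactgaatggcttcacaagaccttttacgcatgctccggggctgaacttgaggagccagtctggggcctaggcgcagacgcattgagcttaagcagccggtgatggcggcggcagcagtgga

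The Rheb promoter held an E-box (CACGTG, the core bound by Myc and TFEB family factors) at -86 and a GC box (GGGCGG, bound by Sp1 family factors) at -43. Over 27457 promoters of the same length the E-box occurred in 5.733% and the GC box in 32.12%, and among the members the GC box also occurred in Mtor, Tsc2 and Sesn1. The Rps6kb1 promoter held the core GCGCATGC, bound by NRF1, at -222, a motif in 2.345% of all promoters and in no other member searched. CCAAT occurred in Mtor, Mlst8 and Sesn1 (34.17% of all promoters), and neither TGACGTCA (1.675%) nor GTAAACA (3.289%) occurred in any of the 8. Akt1, also a called member with an entry, held none of the motifs searched, and neither did Tsc1. The marked matches do not overlap each other, and a match describes letters in this window only.

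The question of how the rest of the pathway differed was addressed with 91 other genes in 5 lists, of which 71 were tested, each represented by the brightest tested probe set. By limma 7 of the 71 rose and 2 fell, 12.7% called beside 16.9% of all 8397 tested genes (8.85% higher and 8.03% lower), and their median difference was 0.01. The other 62 did not pass the test. These lists were chosen with earlier results of these data known, and genes were named from them by smallest p or a call. The adjusted p-values of the named genes are therefore a description and no independent test.

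In the amino acid sensing list 2 of 22 tested genes rose and 1 fell, with a median of 0.03. Rraga, a Rag GTPase that brings mTORC1 to the lysosome, read 9.29, 9.37, 8.91, 9.32 and 9.09 on the ketogenic diet, against 8.68 to 9.06 on the control diet, and rose by 0.42 (SE 0.09, adjusted p = 0.0106). Lamtor4, of the Ragulator complex that anchors the Rag proteins, rose by 0.29 (adjusted p = 0.0432), a call kept in 4 of the 11 fits that left out 1 array (control replicate 1, 3 or 6 or ketogenic replicate 3). Nprl3, a subunit of GATOR1, which inactivates the Rag GTPases, fell by 0.32 (SE 0.08, adjusted p = 0.0195), with ketogenic values of 7.90, 7.70, 7.96, 7.59 and 7.79, all below the control values of 8.02 to 8.28. That call was lost without ketogenic replicate 2 or 4. Fnip2, a partner of folliculin, differed by 0.35 (adjusted p = 0.0669) and did not pass.

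Among the partners of the mTOR complexes, 1 of 7 rose and 0 fell. Mapkap1, a core subunit of mTORC2, the sister complex that phosphorylates Akt, read 7.13, 7.14, 6.85, 7.29 and 7.30 on the ketogenic diet, against 6.39 to 6.89 on the control diet, and rose by 0.56 (SE 0.11, adjusted p = 0.00624). Only ketogenic replicate 3 overlapped the control values. Rictor, the defining subunit of mTORC2, and Rptor, that of mTORC1, differed by 0.17 (adjusted p = 0.259) and -0.17 (adjusted p = 0.279), and Telo2, a factor in the assembly of these kinases, by 0.21 (adjusted p = 0.298).

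In the growth factor list 1 of 12 rose and 0 fell. Phlpp1, a phosphatase that removes an activating phosphate from Akt, read 6.91, 7.16, 7.12, 7.44 and 7.23 on the ketogenic diet, against 6.49 to 6.75 on the control diet, with no overlap, and rose by 0.54 (SE 0.10, adjusted p = 0.00459). The 2 receptors that feed this arm lay near the threshold with opposite signs, Igf1r at 0.36 (adjusted p = 0.0522) and Insr at -0.33 (adjusted p = 0.0549). Gsk3a, a kinase inhibited by Akt, differed by -0.18 (adjusted p = 0.200).

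The energy and stress list, centred on the AMP-activated kinase that restrains mTORC1, had 1 gene of 11 higher and 1 lower. Prkag2, a regulatory subunit of that kinase, read 7.43, 7.76, 7.49, 7.97 and 7.48 on the ketogenic diet, all above the control values of 6.87 to 7.36, and rose by 0.53 (SE 0.12, adjusted p = 0.0116). Prkab1, its beta subunit, fell by 0.58 (SE 0.19, adjusted p = 0.0488), a call kept in only 3 of the 11 fits that left out 1 array (control replicate 6 or ketogenic replicate 2 or 3). Cab39, a partner of the upstream kinase Stk11, differed by 0.19 (adjusted p = 0.0902), with its other probe set of opposite sign, and Prkag1 by -0.12 (adjusted p = 0.262).

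In the list of mTORC1 outputs 2 of 19 rose and 0 fell. Pdcd4, a translation inhibitor that S6 kinase marks for degradation, read 7.71, 7.62, 7.35, 7.91 and 7.64 on the ketogenic diet, all above the control values of 6.66 to 7.15, and rose by 0.68 (SE 0.11, adjusted p = 0.00271). Rps6, the ribosomal protein that S6 kinase phosphorylates, rose by 0.22 (SE 0.06, adjusted p = 0.0246), a call lost without control replicate 3 or ketogenic replicate 1, 2 or 4. Eef2k, the kinase that slows translation elongation, and Atg13, of the complex that starts autophagy, differed by 0.42 (adjusted p = 0.0789) and 0.24 (adjusted p = 0.0653). The calls of Rraga, Mapkap1, Phlpp1, Prkag2 and Pdcd4 were kept in all 11 fits that left out 1 array. With the ratio covariates 0 of the 71 genes were called by limma, and 3 had an unadjusted p under 0.05, which some genes reach by chance alone. The differences were then closer to 0 for Rraga (0.079), Lamtor4 (0.13), Nprl3 (-0.20), Prkab1 (-0.20), Rps6 (0.11), Mapkap1 (0.43), Prkag2 (0.43) and Pdcd4 (0.45), while Phlpp1 was at 0.62. With the hybridisation spike-in covariate Prkab1 was at -1.05, and Phlpp1 (0.50), Nprl3, Lamtor4 and Rps6 were not called.

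**Figure D4:**
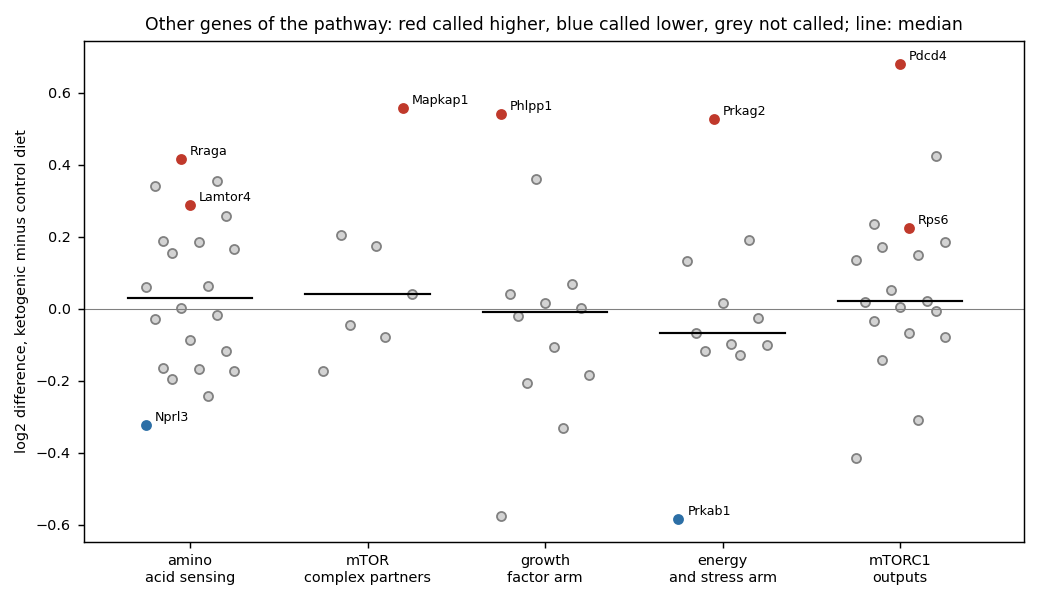
Log2 difference (vertical axis, ketogenic minus control) of the other tested genes of the pathway in 5 lists, 1 point per gene, red called higher, blue called lower and grey not called, with a line at each list's median. The list medians lie between -0.07 and 0.04, and the called genes with the widest differences are Pdcd4 at 0.68 and Prkab1 at -0.58.

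Genes next to or overlapping the members in the GRCr8 gene table did not share a single direction. Prkag2, above, neighbours Rheb and rose while Rheb 1398787_at was lower. Pkd1, which encodes polycystin and overlaps Tsc2, rose by 0.58 (adjusted p = 0.0138), whereas Tsc2 was at 0.13. Adrb3, a beta-adrenergic receptor gene beside Eif4ebp1, fell by 0.51 (adjusted p = 0.0348). Jmjd8, beside Wdr24, differed by 0.35 (adjusted p = 0.0582), and Rnft1, which overlaps Rps6kb1, by -0.25 (adjusted p = 0.274). Pgp beside Mlst8 (-0.17, adjusted p = 0.120), Nthl1 beside Tsc2 (-0.23, adjusted p = 0.271) and Cep57l1 beside Sesn1 (0.02, adjusted p = 0.904, all limma) were not called either. The remaining neighbours were not tested. Of all tested genes 16.9% were called. Whether probe sets of overlapping genes read each other's transcripts was not tested.

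The genes whose values most resembled those of each called member over the 11 arrays are given by Pearson correlation. For Wdr24 they were Smarcad1, Immt, Lrrc42, Psmc1 and Zdhhc17, at 0.95 each. After the diet means were taken out these were 0.82 to 0.94, and without control replicate 6 they were 0.33 to 0.80. For Rps6kb1 1398396_at they were Mrpl15 (0.97), Slc6a9 (0.92) and Meaf6 (0.91), and for Eif4ebp1 Arrdc1 (0.96), Ssna1 (0.96) and Dusp12 (0.95). For Rheb 1398787_at they were Pomgnt2 (0.92), Add1 (0.91) and Kif3b (0.90). The 2 called Akt1 probe sets had different neighbours: Polr2j (0.96), Cd4 (0.95) and Serp2 (0.94) for 1375178_at, and Src (0.97), Ssh3 (0.97) and Efr3b (0.96) for 1383126_at. These points share arrays and the diet difference itself, so high values also follow from 2 genes that each differ by diet.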

How the data were processed

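The authors deposited 1 linear intensity per probe set and array. How they made it from scanner images is not given in the sources used here. Precision is limited by the number of arrays. Medians of log2 values spanned 0.24 between arrays, above a limit of 0.1, so arrays were quantile normalized. Values under the 5th percentile of all pooled values (a signal of 4.99) were set to it, and log2 was taken. After 57 control probe sets were left out, the 25% with the lowest mean were not tested, which left 11899. Diets were compared with limma 3.58.1 in R 4.3.3 (lmFit, eBayes with a variance trend, two-sided, Benjamini-Hochberg over all tested probe sets, threshold 0.05). On simulated independent values this fit called 57 of 100 added differences of 0.5 and 92 of 100 of 1, with 11 false calls. Smaller differences may therefore go uncalled. The simulation held no distant array and no array-wide shift, unlike these data. Of 15866 probe sets, 12789 had 1 symbol in the platform annotation, 312 had several and 2771 were unnamed here. Symbols were updated through gene identifiers with the GRCr8 gene table, in which 12754 were found.

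The members, lists and rules were chosen with earlier results of these data known. The named genes are all members, the up to 4 genes of each pathway list with the smallest p and any other called gene, Hbb, the neighbours of the members, and the 3 genes (5 for Wdr24) most correlated with each called member. The neighbours, Slc17a7 and Camk2a lie outside the rule as written at the start. Replicate numbers are shared by the diets. After diet means were taken out, same-numbered arrays correlated at 0.01 to 0.08 and arrays of different number at -0.12 to 0.11. For ketogenic replicates 3 and 4 the control array of the same number correlated best. Arrays were not treated as pairs, and a fit with the replicate number as a block is among the alternatives. Alternatives changed the scaling, floor, filter, variance model, array weights, block, covariates, threshold and the arrays left out.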

Additional observations from a re-analysis of the deposited data

Results flagged for a closer look

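In 5 of 36 groups of arrays, 1 array lay far from the others of its diet by Dixon's criterion at the 95% level, where about 1.8 would be flagged by chance. Ketogenic replicate 3 was the distant array in 3 of them. Eif4ebp1 1386888_at was at 7.55 on that array, with the nearest other ketogenic value at 7.07. Sesn1 1372248_at was at 6.87 there, with the nearest at 7.38. The untested Rps6kb1 probe set 1368116_a_at was at 4.25 there, with the nearest at 5.82. In the control group, Eif4ebp1 1386888_at was at 7.20 in replicate 2, with the nearest at 7.56, and Tsc1 1369362_at was at 5.92 in replicate 5, with the nearest at 5.52.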

How the results depend on the processing

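As above, nothing is read from the counts of member probe sets in this section. With all arrays 1961 probe sets (16.5% of those tested), 6 member probe sets (Wdr24 among them) and 9 pathway genes were called. With the 3 prime to 5 prime ratios entered as covariates these were 6, 0 and 0. In that fit, among the pathway genes named in the text, 4 that were not called changed sign, Rictor to -0.11, Rptor to 0.12, Gsk3a to 0.13 and Prkag1 to 0.028; the ratios moved with diet, and the cause was not tested. Array weights gave 3137 probe sets and 20 pathway genes, a threshold of 0.1 gave 3071 and 18, the values as deposited gave 18 pathway genes and centring on the 75th percentile 17. Of settings chosen after seeing the data, the level of the hybridisation spike-ins as a covariate gave 1361 probe sets, 5 member probe sets and 8 pathway genes, the level of all spike-ins gave 767 probe sets and 3 member probe sets, and leaving out ketogenic replicate 3 and control replicate 6 together gave 3226 probe sets and 25 pathway genes. Leaving out 1 array at a time gave 798 (without ketogenic replicate 4) to 3165 (without ketogenic replicate 3) probe sets, 2 (without ketogenic replicate 1 or 5) to 8 member probe sets and 5 to 21 pathway genes. With the replicate block 1815 probe sets, 6 member probe sets and 12 pathway genes were called. With the lowest 50% left untested, Wdr24, Tsc1 1369362_at and Rheb 1375360_at were not tested. Wdr24 stayed positive in all 24 alternatives that gave a value. These refit the same arrays for a gene chosen with its difference known, so this is a description.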
